A study of Mus musculus with 6 samples.

Results

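Very long lncRNA transcripts, those of at least 10000 bp, were followed in cultured mouse spermatogonial stem cells (SSCs) before and after loss of the growth factor GDNF. A transcript was included when its annotated length was 10000 bp or more, it had at least 10 counts in each of the 6 samples, and it was not among the 30 transcripts with the highest summed counts. 7 of the 73710 lncRNA transcripts listed in any sample met this rule, 6 of them known from the NONCODE library (names beginning with n) and 1 predicted from the assembled reads (a name beginning with TCONS). 16 transcripts of this length were listed in all, 14 known and 2 predicted. The other 9 had fewer than 10 counts in at least 1 sample, and no transcript of this length was among the 30 most abundant. The comparison set was the 20519 shorter transcripts that met the same count rules, 10533 known and 9986 predicted.

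The cultures were begun with germ cells of C57BL/6 pups aged 6 to 8 days, sorted for Thy1 and grown for 10 to 20 passages on STO feeder cells in serum-free medium with GDNF, GFRA1 and FGF2. The study compared normal culture (N), culture after 18 h of GDNF withdrawal (0 h), and culture given GDNF again for 8 h after such a withdrawal (8 h), with 2 samples in each condition from 2 independently established lines. Cells were pipetted off the feeder layer before RNA was isolated. Only lncRNAs were tabulated, so neither the germ cell label nor feeder cells could be checked here with coding marker genes, and fewer cells of a type cannot be told apart from less RNA per cell. Total counts per sample ranged from 7.69 M to 8.50 M (M for mega).

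An lncRNA is a long RNA with no recognised protein product. Most are spliced and of modest length, but a small class is made as single unspliced or little spliced RNAs many kilobases long. Members of this class tend to stay in the nucleus, near the site where they are made, and are known for building nuclear bodies or for silencing neighbouring genes.

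The tables gave neither sequence nor position for any transcript, so each length was compared with the reference annotation on GRCm38. The length of n424069, 20771 bp, equals that of Neat1-201, the single-exon long form of Neat1, the RNA around which paraspeckles are built, at chr19:5824708-5845478 on the minus strand. The length of n411773, 52401 bp, equals that of Gm4117-201, a spliced antisense lncRNA with exons of 131 bp and 52270 bp at chr13:89739460-89842373 on the plus strand. The length of n413804, 83437 bp, equals the span that RefSeq gives for Kcnq1ot1, an imprinted RNA expressed from the paternal allele that silences neighbouring genes, at chr7:143213111-143296547 on the minus strand. GENCODE lists Kcnq1ot1-201 as a single exon of 93092 bp.

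These matches rest on length alone. Of 74816 non-coding transcripts in GENCODE M21, 54 were 10000 bp or longer, and the number within 500 bp of the length was 2 for n424069 and 1 for n411773, the match included. Among RefSeq lncRNA genes, 10 had a span within 500 bp of n413804, 155 of n424069 and 28 of n411773. The lengths of n411770 and n415211 equalled spans of little-studied RefSeq genes, but 369 and 358 gene spans lay within 500 bp of them, so no name is given. TCONS_00106995 and n415400 matched nothing. Below, the NONCODE names are used throughout, since a shared length does not identify a transcript.

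The first 120 bases of the 3 reference transcripts are shown to place them and to compare their starts, 5′ to 3′ on the transcript strand, with each CG dinucleotide in capitals.
Neat1-201 (length of n424069; chr19:5845359-5845478): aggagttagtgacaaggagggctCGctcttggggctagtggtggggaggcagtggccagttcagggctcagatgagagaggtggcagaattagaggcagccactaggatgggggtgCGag
Gm4117-201 (length of n411773; chr13:89739460-89739579): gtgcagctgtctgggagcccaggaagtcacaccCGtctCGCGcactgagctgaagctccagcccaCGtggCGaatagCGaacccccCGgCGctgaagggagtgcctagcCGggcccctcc
Kcnq1ot1 (length of n413804; chr7:143296428-143296547): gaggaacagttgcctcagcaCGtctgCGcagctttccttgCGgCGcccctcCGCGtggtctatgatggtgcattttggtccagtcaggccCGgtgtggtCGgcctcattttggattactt
The start of Gm4117 holds 9 CG dinucleotides and that of Kcnq1ot1 holds 8, or 75 and 66.7 per 1000 bases, against 5.27 and 6.62 per 1000 over the whole transcripts. Neat1 has 2 in its first 120 bases, 16.7 per 1000, close to the 15.4 of the whole transcript. The G and C content was 47.3% for Neat1, 38.7% for Gm4117 and 40.8% for Kcnq1ot1.

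Among transcripts of 5000 bp or more, those below 10000 bp were mostly predicted and those above it mostly known. From 5000 to just under 10000 bp, 563 predicted and 313 known transcripts were listed. By 1000-bp step, the predicted class had 256, 139, 90, 50 and 28 transcripts and then 1 in the step from 10000 bp. The known class had 237, 52, 15, 7 and 2 in the same steps and then 4. The longest predicted transcript was 12289 bp, whereas known ones reached 107797 bp.

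**Figure D1:**
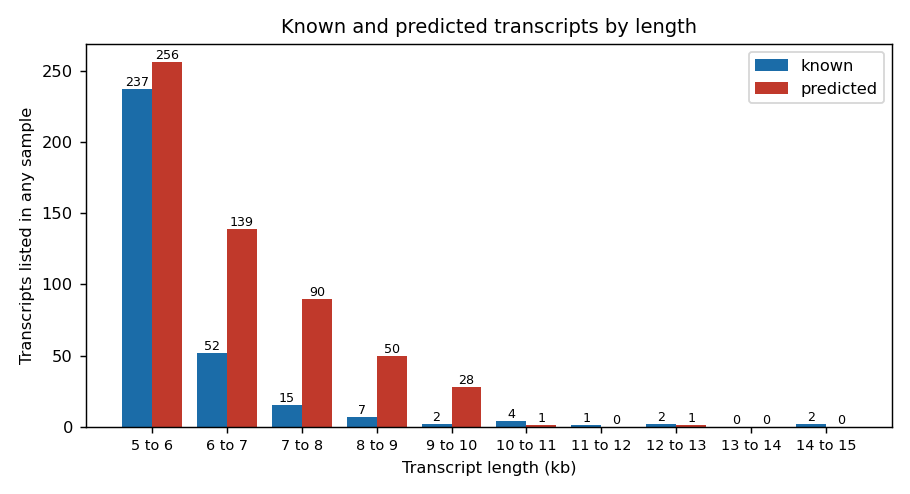
Number of transcripts listed in any sample (vertical axis) by length in kb (horizontal axis), for known (blue) and predicted (red) lncRNAs. The predicted class has 28 transcripts between 9 and 10 kb and 1 in the next step, where the known class goes from 2 to 4.

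Just below the threshold lay TCONS_00136041 at 9997 bp, with 9578 summed counts, mean coverage of 91.5% and mean RPKM of 19.9, and TCONS_00137604 at 9985 bp, with 11419 summed counts, 93.5% and 23.8. Just above it lay TCONS_00106995 at 10354 bp, with 188 summed counts, and n411770 at 10780 bp, with 4637. Of the 2 predicted transcripts above the threshold, TCONS_00107761 had 30 summed counts and missed the count rule, and TCONS_00106995 had fewer reads than its 2 closest predicted neighbours below. Among transcripts of 5000 to just under 10000 bp, the 480 predicted transcripts that met the count rule had a median coverage of 83.4% and a median RPKM of 10.3, and the 154 known ones had 42.8% and 3.42. Predicted transcripts were assembled from the study's own reads, so high coverage by those reads is partly built in. The same holds for the predicted transcripts among the shorter ones used for comparison below.

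Levels per unit length, as counts scaled by transcript length and library size (RPKM), were low for most of the very long transcripts. The median of the 7 mean RPKM values was 1.90, against 4.55 for the shorter transcripts. Both sets passed the same count rule, which a longer transcript meets at a lower RPKM, so part of this gap follows from the rule. In order of mean RPKM over the 6 samples, n411770 stood at 8.85, n413804 at 4.56, n415400 at 2.05, n415211 at 1.90, n424069 at 1.65, n411773 at 1.04 and TCONS_00106995 at 0.375. Between n415400, n415211 and n424069 the order did not exceed the spread of the samples: RPKM ran from 1.58 to 2.58, from 1.29 to 2.67 and from 1.20 to 2.44. The samples of n411770 ran from 5.13 to 12.0 and those of n413804 from 2.66 to 6.96, so these also overlapped. The predicted transcript stayed below every known one in each sample, at 0.148 to 0.834.

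In raw counts the order was another one, since a long transcript collects more reads at the same RPKM. n413804 had 18384 counts over the 6 samples, rank 216 of all transcripts, and took between 45.2% and 73.9% of the counts on the 7 transcripts in each sample. The 7 together took 0.0570% ± 0.00159 of the library in N, 0.0565% ± 0.0106 at 0 h and 0.0730% ± 0.00790 at 8 h (mean ± SD, n = 2 each). The share was higher at 8 h than in either other condition in both samples, but an exact two-sided permutation test of 2 against 2 gave p = 0.333 for both comparisons, the smallest it can give, and p = 1 for 0 h against N. Without n413804 the share was 0.0228%, 0.0259% and 0.0237%, and the order of N, 0 h and 8 h changed.

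Coverage, the percent of a transcript's bases with at least 1 read, separated the transcripts more than RPKM did. Transcripts with a single count had a median of 90 covered bases in the 6 samples, to the nearest base, taken as the length of 1 read. By mean coverage, n411770 stood at 89.6%, n413804 at 65.5%, n424069 at 47.9%, n415211 at 17.9%, TCONS_00106995 at 10.4%, n411773 at 9.28% and n415400 at 3.66%. Over the samples, n411770 ran from 84.8% to 94.0%, n413804 from 53.8% to 70.4% and n424069 from 39.0% to 59.0%, so the neighbours n413804 and n424069 overlapped. Every sample of these 3 was above every sample of the other 4, whose highest was 21.1%.

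n415400 had reads over the smallest part of its length. Its 14357 bp had 193 to 285 counts in a sample, and reads laid end to end would have been enough to reach every base. They lay on 429 to 600 bases, between 1.67 and 3.08 covered bases per count. Of 1256 shorter transcripts whose summed counts were within 20% of its own, the median coverage was 83.9% and 0 had a lower one. 109 of these had fewer covered bases. At similar counts, the same covered bases are a smaller percent of a longer transcript. Ranks in percent coverage against shorter peers therefore partly follow from length, here and below. The RPKM of n415400, which is divided by the whole length, spreads its reads over bases that no counted read touched. Only uniquely mapped reads were counted, so bases that such reads cannot reach look the same as unread ones. Whether this played a part, here or for the transcripts below, was not tested.

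n411773, the transcript with the length of Gm4117-201, also had fewer covered bases than its reads could have reached. With 389 to 505 counts, its reads could have covered 66.8% to 86.7% of 52401 bp if none overlapped, and they covered 7.60% to 12.9%, or 3982 to 6749 bases. None of 958 shorter transcripts of similar count had lower coverage, and their median was 86.8%. In covered bases n411773 stood above most of these, unlike n415400: 912 of the 958 had fewer. The highest coverage was in 8 h replicate 1 at 12.9%, and the other 5 samples lay between 7.60% and 9.57%.

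n415211 and TCONS_00106995 also had low coverage as a percent of their length. For n415211, 133 to 257 counts lay on 15.4% to 21.1% of 12530 bp, and 12 of 1392 shorter transcripts of similar count had lower coverage. In covered bases the rank was another one, since 1019 of the 1392 had fewer. For TCONS_00106995, 13 to 71 counts lay on 6.26% to 17.4% of 10354 bp. Reads without overlap could have reached 11.3% to 61.7%, so the low counts set a low ceiling in some samples. 19 of 3659 shorter transcripts of similar count had lower coverage, and their median was 61.6%. Fewer covered bases were found in 2517 of the 3659.

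n424069 and n413804, the transcripts with the lengths of Neat1-201 and Kcnq1ot1, had reads over much of their length. n424069 had 8094 to 12263 covered bases and 31.5 to 44.6 covered bases per count. Reads without overlap could have covered 88.0% to 100% of its length. Of 1177 shorter transcripts of similar count (median length 2145 bp), 117 had lower coverage. n413804 had 44856 to 58698 covered bases, which its 124 shorter peers of similar count, all under 10000 bp, could not reach. The largest value among these peers was 8369. The coverage of n413804 was lower than the median of those transcripts, 91.4%, and 10 of them were lower still. n411770 was covered like shorter transcripts of its count, at 89.6% against a median of 90.5%, with 330 of 693 lower.

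**Figure D2:**
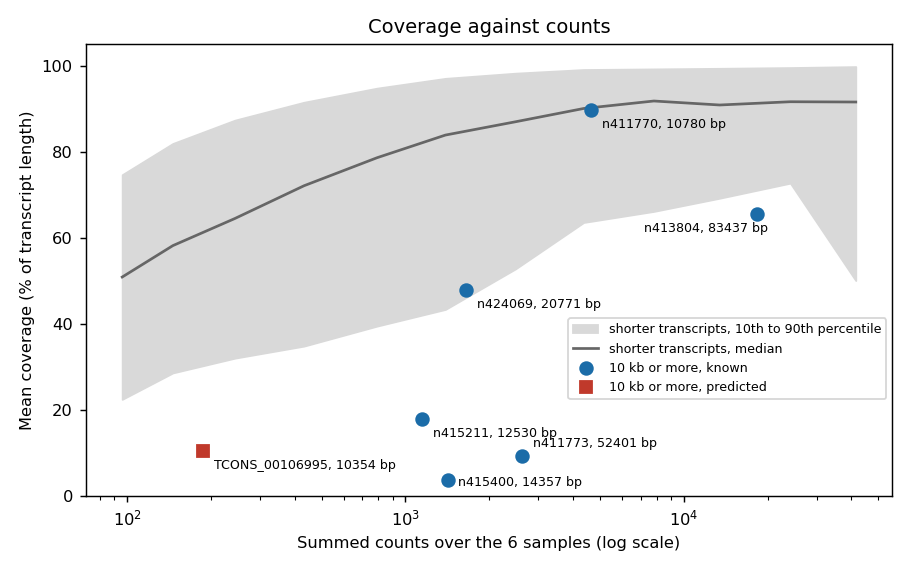
Mean coverage in percent of transcript length (vertical axis) against counts summed over the 6 samples (horizontal axis, log scale), for the 6 known (blue circles) and 1 predicted (red square) transcripts of 10 kb or more. The line is the median and the grey band the 10th to 90th percentile of the shorter transcripts in bins of summed counts. n411770 lies on the median, and n415211, TCONS_00106995, n411773 and n415400 lie far below the band, at 17.9% or less. n413804, at 65.5%, lies just below the band, and n424069 lies near its lower edge.

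At similar counts a long transcript must have a lower RPKM, since the unit divides by length. The size of this gap was 8.85 for n411770 against a median of 38.0 in its shorter peers, 4.56 against 122 for n413804, and 0.375 against 2.40 for TCONS_00106995. n415211 stood at 1.90 against 10.4, n415400 at 2.05 against 12.97, n424069 at 1.65 against 15.6 and n411773 at 1.04 against 23.1. The median length of those peers ran from 1587 to 3154 bp.

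The response to GDNF was read from counts scaled between libraries, with edgeR's quasi-likelihood test on 39310 transcripts in all 3 conditions and adjustment by Benjamini-Hochberg (FDR). Being members by count, all 7 were tested. A call needed FDR below 0.05 and a change of at least 2-fold. The study used a looser criterion, unadjusted P below 0.05 with 2-fold, and for a stricter list FDR below 0.05 with 2-fold. That looser criterion is given beside the call. So is FDR below 0.05 at any fold, which was added after the values were seen.

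After GDNF withdrawal none of the 7 was called by the first rule, which called 0.511% of all transcripts tested, and DESeq2 also called 0. At unadjusted P below 0.05 and any fold, 2 of the 7 were found, TCONS_00106995 and n411770, against 9.91% of all. The looser rule took 1 of the 7, TCONS_00106995, as lower at 0 h, and it took 6.58% of all transcripts tested. FDR below 0.05 at any fold took 0 of the 7 and 0.552% of all. The 0 h and N samples did not overlap for 3 of the 7, n411770 and n411773 higher and TCONS_00106995 lower, and did not overlap for 40% of all transcripts. The median log2 fold change of the 7 was -0.02, against -0.01 over all transcripts, and it was above 0, at 0.04 to 0.14, without any 1 of the N or 0 h samples.

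TCONS_00106995 had the largest difference after withdrawal. It had 34.4 and 70.6 normalized counts in N, 20.6 and 12.5 at 0 h, and 15.7 and 34.8 at 8 h. Both 0 h samples were below both N samples, while the 8 h samples overlapped those of both other conditions. The log2 fold change at 0 h against N was -1.67 ± 0.53 (SE), with edgeR FDR = 0.26 and an unadjusted P that passed the looser rule. 19 of 3659 shorter transcripts of similar count had a larger change. Of these 3659, 1 was called by the first rule after withdrawal, and 7.32% passed the looser rule. The samples of N differed 2.05-fold from each other, and without N replicate 2 the log2 fold change was -1.06 with FDR = 0.69. Without 0 h replicate 2 it was -1.35 with FDR = 0.60. In both cases the looser rule no longer took it.

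On GDNF refreshment none of the 7 was called by the first rule, against 0.89% of all transcripts, and DESeq2 also called 0. At unadjusted P below 0.05, 2 of the 7 were found, n411770 and n413804, against 13.7% of all. Both were under 2-fold, so the looser rule took 0 of the 7 against 9.21% of all. FDR below 0.05 at any fold took 1, n411770, against 0.972% of all. The samples of 8 h and 0 h did not overlap for 4 of the 7, n415400, n424069 and n411773 higher and n411770 lower, and for 45.3% of all. The median log2 fold change of the 7 was 0.34, and 6 of the 7 values were above 0, while the median over all transcripts was within 0.01 of 0. Without 0 h replicate 2 the median of the 7 was 0.15, and without 8 h replicate 1 it was 0.23.

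n411770 had the lowest FDR of the 7 in any comparison. Its normalized counts were 806 and 718 in N, 1089 and 985 at 0 h, and 605 and 441 at 8 h. The 3 conditions did not overlap, with 0 h highest and 8 h lowest. In RPKM it stood at 8.65 ± 0.707 in N, 11.6 ± 0.593 at 0 h and 6.28 ± 1.63 at 8 h (mean ± SD, n = 2 each). At 8 h against 0 h it was 1.98-fold lower, a log2 fold change of -0.99 ± 0.20 with edgeR FDR = 0.038, just short of the 2-fold minimum. 30 of 693 shorter transcripts of similar count had a larger change.

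This FDR depended on the libraries and the scaling. It was 0.0017 with the DESeq2 test and 0.0014 with no filter. With DESeq2 size factors it was 0.039, and likewise 0.039 when transcripts with 50 counts in 2 samples were tested. It was 0.059 when libraries were scaled by total counts, and 0.072 when the N samples were left out. With the replicate number as a block it was 0.0002, the change just passed 2-fold, and n411770 was called, though the labels do not tie a number to a line. Without 1 sample at a time it was 0.076 and 0.074 (N replicates 1 and 2), 0.19 and 0.15 (0 h replicates 1 and 2), 0.032 (8 h replicate 1) and 0.20 (8 h replicate 2), with log2 fold changes between -1.22 and -0.76. The change passed 2-fold without 8 h replicate 1, at -1.22, and without 0 h replicate 2, at -1.06. After withdrawal n411770 stood at a log2 fold change of 0.44 ± 0.20, with FDR = 0.48, and at 8 h against N it stood at -0.54 ± 0.20, with FDR = 0.28. With the block the latter FDR was 0.033, and without 8 h replicate 2 the latter change was -0.32.

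**Figure D3:**
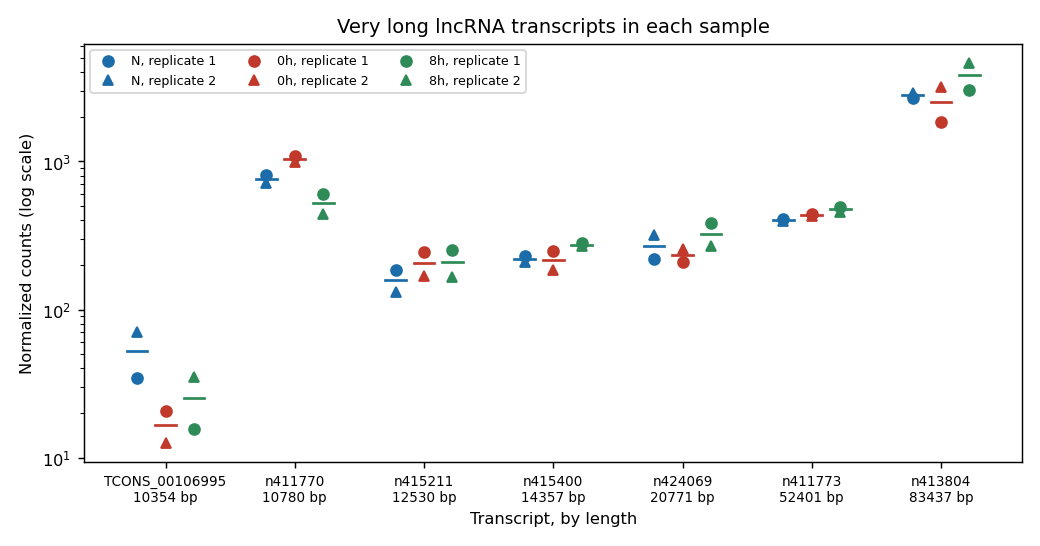
Normalized counts (vertical axis, log scale) of the 7 transcripts, ordered by length, in N (blue), 0 h (red) and 8 h (green), with circles for replicate 1, triangles for replicate 2 and a bar for the mean of the 2. n411770 is highest at 0 h and lowest at 8 h without overlap, and n413804 has its lowest value, 1858, in 0 h replicate 1 and its highest, 4626, in 8 h replicate 2.

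n413804, the transcript with the length of Kcnq1ot1, had 2684 and 2910 normalized counts in N, 1858 and 3188 at 0 h, and 3054 and 4626 at 8 h. The 0 h samples differed 1.72-fold and spanned those of N, and 1 of the 8 h samples lay below the higher 0 h sample. The log2 fold change was -0.15 ± 0.24 after withdrawal and 0.61 ± 0.24 at 8 h against 0 h, the latter with FDR = 0.27. 10 of 124 shorter transcripts of similar count had a larger change on refreshment. Without 0 h replicate 1 the latter value was 0.27, without 8 h replicate 2 it was 0.29, and without 0 h replicate 2 it was 1.05 with FDR = 0.16, which the looser rule took. With the replicate number as a block it was 0.62 with FDR = 0.0074.

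n424069, the transcript with the length of Neat1-201, had 218 and 316 normalized counts in N, 209 and 255 at 0 h, and 382 and 270 at 8 h. Both 8 h samples were above both 0 h samples, and 1 N sample lay above the lower 8 h sample. The log2 fold change was -0.20 ± 0.26 after withdrawal and 0.49 ± 0.25 on refreshment, with FDR = 0.43. Without 8 h replicate 1 the latter value was 0.23.

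The other 3 known transcripts had an FDR of 0.55 or more in each comparison. n411773 had 406 and 395 normalized counts in N, 442 and 427 at 0 h, and 496 and 454 at 8 h, and no sample of one condition overlapped another. Its replicates were within 1.09-fold of each other, yet the log2 fold changes were 0.12 ± 0.19, 0.13 ± 0.19 and 0.25 ± 0.19 for 0 h against N, 8 h against 0 h and 8 h against N. n415400 had 231 and 209 in N, 247 and 185 at 0 h, and 280 and 267 at 8 h, with log2 fold changes of -0.02 ± 0.23, 0.34 ± 0.23 and 0.31 ± 0.23. Without 0 h replicate 2 the second of these was 0.15, and without 0 h replicate 1 it was 0.56. n415211 had 185 and 132, 244 and 169, and 252 and 166, where the samples overlapped in every comparison and the log2 fold changes were 0.38 ± 0.29, 0.02 ± 0.28 and 0.40 ± 0.29. Leaving out 1 sample at a time moved the first to between 0.088 (without 0 h replicate 1) and 0.63 (without N replicate 1), and the last to between 0.079 (without 8 h replicate 1) and 0.68 (without 8 h replicate 2). For n415211, replicate 1 was above replicate 2 in each condition by 1.40-fold to 1.52-fold.

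Cells given GDNF again were also set against normal culture. The first rule called 0 of the 7 and 0.214% of all transcripts, the looser rule 0 and 8.23%, and FDR at any fold 0 and 0.234%, and DESeq2 also called 0. At unadjusted P below 0.05, 1 of the 7 was found, n411770, against 12.3% of all. The samples did not overlap for 4 of the 7, n415400, n411773 and n413804 higher and n411770 lower, and for 44.1% of all. The median log2 fold change of the 7 was 0.28, against 0.01 over all transcripts, and it was 0.08 without 8 h replicate 1. TCONS_00106995 stood at -1.06 ± 0.51 with FDR = 0.43. Without N replicate 1 it was -1.48 and without 8 h replicate 2 it was -1.72, with FDR = 0.42 and 0.40, and the looser rule then took it. Without N replicate 2 it was -0.45 and without 8 h replicate 1 it was -0.58, with FDR = 0.85 and 0.80. The 3 comparisons share samples and are not independent of each other.

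**Figure D4:**
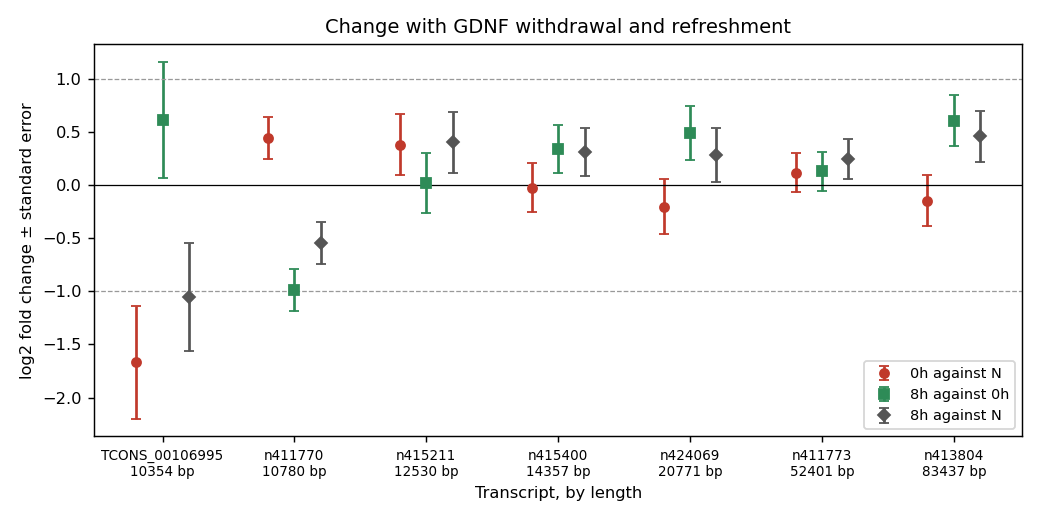
log2 fold change with its standard error (vertical axis) of the 7 transcripts, ordered by length, for 0 h against N (red circles), 8 h against 0 h (green squares) and 8 h against N (grey diamonds), with dashed lines at 2-fold. TCONS_00106995 reaches -1.67 after withdrawal and n411770 reaches -0.99 on refreshment, and the known transcripts other than n411770 lie between -0.20 and 0.61.

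Against shorter transcripts of similar count, the sizes of the changes of the very long transcripts lay at no common place. After withdrawal, the share of shorter peers with a larger change was 0.519% for TCONS_00106995, 18.8% for n411770, 29.8% for n415211, 50.8% for n413804, 54.0% for n424069, 68.1% for n411773 and 94.3% for n415400. On refreshment it was 4.33% for n411770, 8.06% for n413804, 20.8% for n424069, 33.6% for TCONS_00106995, 39.8% for n415400, 76.1% for n411773 and 96.6% for n415211. Among the peers of n411770, 3.32% were called on refreshment by the first rule and 4.04% passed FDR at any fold.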

How the data were processed

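RNA of 6 samples was depleted of ribosomal RNA, primed with random hexamers and sequenced on a HiSeq 2000. For each sample the authors deposited the count, the RPKM and the coverage of each lncRNA, with its length; per the file headers, the counts are of uniquely mapped reads. Known transcripts came from NONCODE 3.0 and predicted ones from assembly and a coding potential filter. The aligner, the counter and the genome build are not given in the sources used here. The read in a single-count transcript spanned 90 bases, and in every sample more transcripts had 2 counts (6757 to 6862) than 1 (2961 to 3196). Nothing says whether mates of a pair were counted separately or whether strand was used. The transcripts and lists were chosen with earlier results of these data known.

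Counts were scaled by TMM (factors 0.961 to 1.07) and tested with edgeR 4.0.16 in R 4.3.3, with group as the only term, on the transcripts that reached 10 counts in 2 or more samples. DESeq2 1.42.0, other scalings, filters, length limits, a replicate block and leaving out each sample were alternatives. Normalized counts are counts scaled to the mean effective library. Shares used scipy 1.17.1, with Python 3.11.15. Shorter peers had summed counts within 20% of the transcript's. Transcripts named were the longest, the most abundant, those with the smallest P, the extremes of coverage and those next to the length limit, which covered all 7. Reads shared between overlapping transcripts cannot be told apart.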

Additional observations from a re-analysis of the deposited data

How the results depend on the processing

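With 2 samples a condition, many values rest on single libraries. Directions turned when 1 sample was left out for n415400 after withdrawal (-0.25 to 0.17), n424069 after withdrawal (-0.46 to 0.084), n413804 after withdrawal (-0.60 to 0.19), TCONS_00106995 on refreshment (-0.056 to 1.08) and n415211 on refreshment (-0.30 to 0.31). The cause was not tested.

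The labels do not say that a replicate number marks a line. Differences between replicates 1 and 2 correlated across transcripts at 0.16 (N and 0 h), 0.17 (N and 8 h) and 0.19 (0 h and 8 h), and at 0.51 to 0.59 for transcripts with a mean of 100 counts or more, where transcripts are not independent replicates. With the replicate number as a block, n411770 was called on refreshment (just past 2-fold, edgeR FDR = 0.0002), so 1 of the 7 passed the first rule and 1 the looser one, and 2 passed FDR at any fold, the other being n413804 (0.62, FDR = 0.0074). At 8 h against N the block took 1 by the looser rule, TCONS_00106995, and 1 by FDR at any fold, n411770 (-0.55, FDR = 0.033).

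A limit of 8000 bp in place of 10000 bp gave 84 transcripts, with median RPKM 14.1, median coverage 85.0%, shares of 1.58%, 1.57% and 1.67% in N, 0 h and 8 h, and 2, 2 and 1 calls after withdrawal, on refreshment and at 8 h against N. The looser rule then took 3, 2 and 2, and FDR at any fold 4, 5 and 1. A limit of 15000 bp left 3, with median coverage 47.9%, shares of 0.0424%, 0.0387% and 0.0596%, and 0 by the looser rule after withdrawal and 0 by FDR at any fold on refreshment. Asking for 50 counts in each sample left 6, with median coverage 32.9% and 0 by the looser rule after withdrawal, as did testing transcripts with 50 counts in 2 samples, since TCONS_00106995 drops out. Of the counts outside the 30 most abundant transcripts, the 7 held 0.0869%, 0.0876% and 0.110%, and without n413804, a choice made after the values were seen, they held 0.0228%, 0.0259% and 0.0237% of all counts. With no filter the looser rule took 1 at 8 h against N. FDR at any fold took 0 on refreshment with total counts and with only the 2 groups compared. Leaving out 1 sample at a time, the first rule took 0 to 1 on refreshment, the looser rule 0 to 1 after withdrawal, 0 to 2 on refreshment and 0 to 1 at 8 h against N, and FDR at any fold 0 to 1 on refreshment. The first rule called 0 in the other settings. The median log2 fold change of the 84 transcripts of 8000 bp or more was 0.10, 0.02 and 0.06 after withdrawal, on refreshment and at 8 h against N.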

Other observations

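Of the 9 transcripts of 10000 bp or more that missed the count rule, n421229 (10063 bp) came nearest, with 6 to 21 counts in a sample and 71 in all. n413950 had 27 counts over the 6 samples and TCONS_00107761, the longest predicted transcript at 12289 bp, had 30. n412832 had 18 counts in 4 samples, and its length of 14548 bp equals that of Meg3-209, a form of the imprinted lncRNA Meg3, again by length alone. The longest transcript of all, n6231 at 107797 bp, had 1 count in 1 sample.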
